A study of Mus musculus with 8 samples.

Results

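The comparison set plasma cells labelled as lacking Xbp1 (Xbp1KO) against wild-type plasma cells (WT) of the same batch in mouse bone marrow. Members were chosen by the sample labels: the 2 Xbp1KO libraries and the 2 WT libraries that the labels place in batch 2, WT replicates 3 and 4, which makes 4 of the 8 libraries in the study. The mice were C57BL/6, with the genotypes wild type and Xbp1-/-, and the cells were sorted directly from the marrow as Blimp1-GFP+ CD138+, where Blimp1-GFP is a fluorescent reporter of the plasma cell regulator Blimp1 and CD138 is the surface proteoglycan syndecan-1. The reporter is therefore shared by both groups. Names of the deposited files, though not the labels, hold the term CreER for both groups, a form of Cre recombinase that tamoxifen switches on, with "pos" for WT and "fl" for Xbp1KO. The deleted exons, the promoter that drives Cre, any treatment, the age of the mice and whether animals were pooled are not given in the sources used here. The design text calls the replicates biological.

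XBP1 is a transcription factor of the unfolded protein response. IRE1, a sensor in the membrane of the endoplasmic reticulum (ER), splices Xbp1 mRNA when the folding load of the ER rises, and the spliced form encodes the active factor, while PERK and ATF6 form the other branches of the response. XBP1 is known for building the secretory apparatus of antibody-secreting cells, by driving genes for chaperones, translocation into the ER, glycosylation and vesicle transport. Active IRE1 also cuts some other mRNAs on the ER, a process called regulated IRE1-dependent decay, which is known to rise in plasma cells without XBP1 and to lower secretory immunoglobulin heavy chain mRNA.

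Counts per library were 145411827 and 73444544 in WT replicates 3 and 4, and 104136754 and 44012152 in Xbp1KO replicates 1 and 2. WT replicate 4 and Xbp1KO replicate 2 stood apart from the other pair. Summed levels of 24 neutrophil markers were 22.6, 927, 57.4 and 2251 CPM (library-size-scaled counts, per 1e6 counts) in WT replicates 3 and 4 and Xbp1KO replicates 1 and 2. Erythroid markers summed to 63.7, 653, 18.1 and 2127 CPM, and monocyte and macrophage markers to 45.8, 150, 44.5 and 455 CPM. The first principal component, with 46.6% of the variance, separated these libraries from WT replicate 3 and Xbp1KO replicate 1, and the second, with 41.1%, separated the genotypes. Each group therefore held 1 library low and 1 library high in these transcripts, and log2 ratios within each such pair are given beside the tests below.

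**Figure D1:**
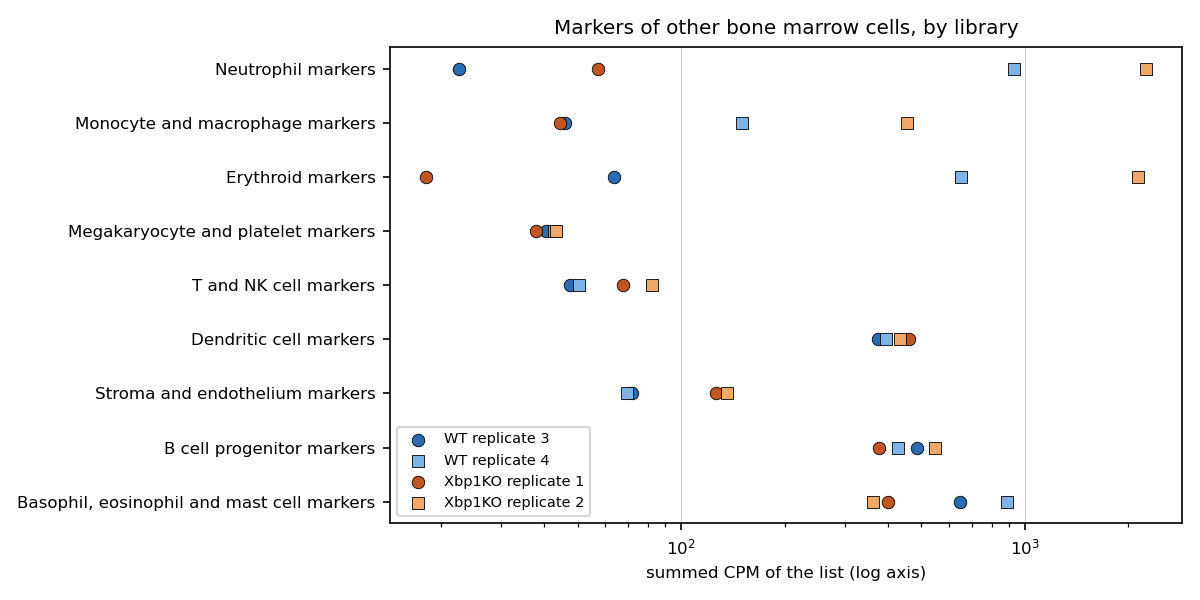
Summed CPM (x, log axis) of 9 marker lists of other bone marrow cells (y) in each of the 4 libraries. Neutrophil markers stood at 22.6 and 57.4 CPM in the circles and at 927 and 2251 CPM in the squares, so the libraries high in them came from both genotypes.

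Plasma cell markers were present in all 4 libraries. Prdm1, which encodes Blimp1 and is the reporter gene, was at 343 and 307 CPM in WT and 564 and 429 CPM in Xbp1KO, a log2 difference of 0.61 ± 0.20 (SE) that did not pass the test (adjusted p = 0.131). Sdc1, which encodes CD138, was at 522 and 400 CPM in WT and 806 and 713 CPM in Xbp1KO (adjusted p = 0.102). Of 16 alternative fits, 2 called Prdm1 higher and 4 called Sdc1 higher. Here and below an adjusted p is that of edgeR's quasi-likelihood test, adjusted by Benjamini-Hochberg over 14882 genes, a gene was called at an adjusted p below 0.05, differences are Xbp1KO minus WT on the log2 scale with their standard error, and each group had 2 libraries. Irf4, Tnfrsf17 (BCMA) and Slamf7, further plasma cell genes named outside the rule for named genes, were at 1029, 642, 1081 and 880 CPM, at 144, 103, 133 and 113 CPM, and at 541, 467, 612 and 515 CPM in the library order above. The groups overlapped in each of these genes.

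Xbp1 itself (chromosome 11, 5520641 to 5525993, GRCm38) was at 2815 and 2854 CPM in WT and 1641 and 1475 CPM in Xbp1KO. The groups did not overlap, and the difference of -0.86 ± 0.21 missed the test (adjusted p = 0.0749). Xbp1 was called lower in 5 of 16 alternative fits, with adjusted p from 2.48e-14 with DESeq2 to 0.0353 with limma on the deposited log2 FPKM. The count covers the whole gene, so it neither checks which exon was deleted nor measures splicing.

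Of 14882 genes tested, 884 (5.94%) were called lower and 607 (4.08%) higher in Xbp1KO. The lower genes moved further: their median difference was -1.18 against 0.89 for the higher genes, beside 0.065 over all genes tested. A change of at least 4-fold was reached by 217 lower and 49 higher genes, and of at least 8-fold by 122 and 12. Immunoglobulin genes were 113 of the 884 lower calls and none of the higher calls. The median difference over the 257 immunoglobulin genes tested was -2.75. These genes are included in the medians and fold counts above, and their part in them was not counted apart. Both Xbp1KO libraries lay below both WT libraries in 27.2% of genes and above them in 32.3%. Without WT replicate 4 the test called 87 lower (0.545% of genes tested) and 8 higher (0.0502%), and without Xbp1KO replicate 2 it called 809 lower (5.20%) and 490 higher (3.15%). When a fit of all 8 libraries omitted both, it called 54 lower (0.353%) and 5 higher (0.0327%). Without WT replicate 3 it called none, with 3030 genes at an unadjusted p below 0.05. Every one of the 1491 called genes kept its sign in each of these fits. The groups overlapped in none of these genes, so leaving out libraries could reverse a sign only through a change of scaling.

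**Figure D2:**
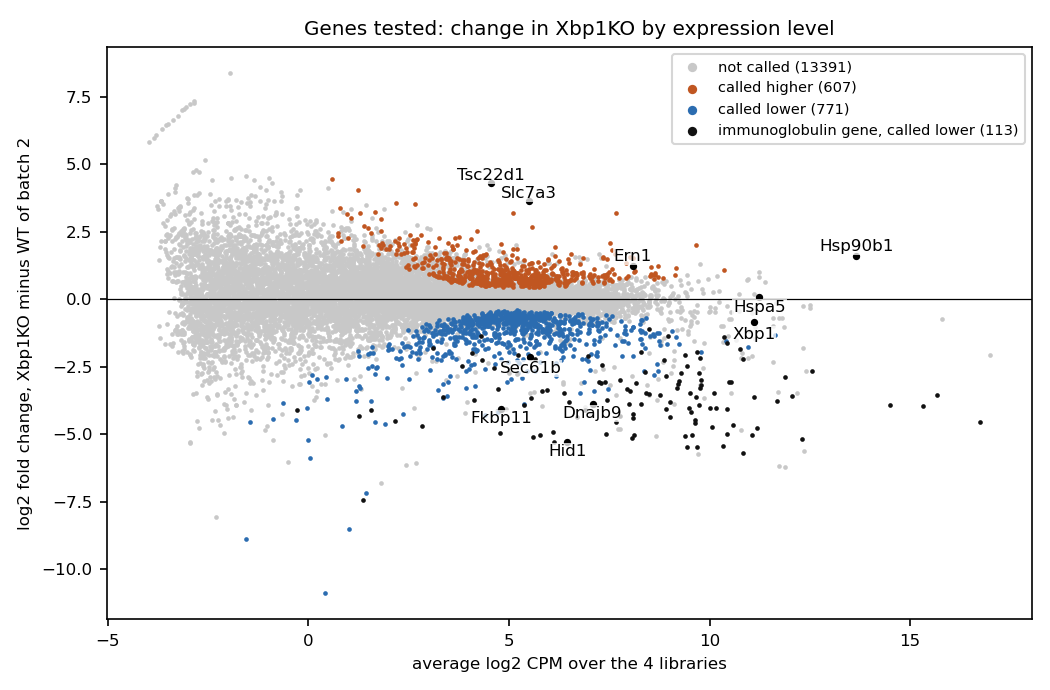
Log2 difference, Xbp1KO minus WT of batch 2 (y), against average log2 CPM over the 4 libraries (x), 1 point a gene. Genes called lower (blue, and black for the 113 immunoglobulin genes) reach larger differences than genes called higher (orange), from Hid1 at -5.31 to Tsc22d1 at 4.29 among the labelled genes.

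Hid1, Dnajb9, Fkbp11 and Sec61b, which serve the Golgi, ER chaperoning, folding and translocation, all fell. Hid1 (chromosome 11, 115347705 to 115367756), a peripheral membrane protein of the Golgi that serves secretory granule formation, was at 184 and 159 CPM in WT and 4.02 and 4.63 CPM in Xbp1KO. This difference of -5.31 ± 0.17 (adjusted p = 0.0041) was a 39.7-fold reduction. Dnajb9 (chromosome 12, 44205897 to 44210068), the ERdj4 cochaperone that binds BiP and represses IRE1, fell from 246 and 264 CPM to 17.5 and 17.0 CPM, a difference of -3.88 ± 0.13 (adjusted p = 0.0041). Fkbp11 (chromosome 15, 98724368 to 98728198), a prolyl isomerase of the ER, fell from 51.0 and 54.7 CPM to 2.58 and 3.77 CPM, by 4.07 ± 0.22 on the log2 scale (adjusted p = 0.00829). Sec61b (chromosome 4, 47474661 to 47483233), the beta subunit of the channel through which nascent proteins enter the ER, fell from 79.8 and 71.8 CPM to 17.4 and 16.5 CPM, by 2.16 ± 0.10 (adjusted p = 0.00829). In all 4 genes the libraries of a group lay far closer to each other than to the other group, in spite of the difference in neutrophil and red cell transcripts.

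The WT libraries of batch 1, which the comparison did not use, gave a further reference for these genes. On the scale of a fit to all 8 libraries, Hid1 was at 154 and 148 CPM in WT replicates 1 and 2, at 139 and 123 CPM in WT replicates 3 and 4, and at 3.19 and 3.47 CPM in Xbp1KO. Dnajb9 was at 220 and 215, 186 and 203, and 13.9 and 12.8 CPM in the same order. Sec61b differed between the WT batches, at 119 and 123 CPM in batch 1 and 60.3 and 55.4 CPM in batch 2, against 13.8 and 12.3 CPM in Xbp1KO. Fkbp11 was likewise higher in batch 1 WT, at 68.4 and 84.5 CPM, than in batch 2 WT, at 38.6 and 42.2 CPM, and was at 2.04 and 2.83 CPM in Xbp1KO. For all 4 genes, both WT batches lay above Xbp1KO. Of the 106 genes named by rule and called lower, WT of batch 1 lay above both Xbp1KO libraries in 104 and overlapped them in 2, Myo1h and Mtor. Of the 68 called higher, it lay below both in 59, overlapped them in 3 (Cd40, Psmd8 and Psmc5) and lay above both in 6, namely Rps26, Rpl30, Ifi30, Ndufc2, Cox6c and Ndufb5. These 11 genes were thus separated from WT of batch 2 and not in the same way from WT of batch 1, against which genotype and batch cannot be told apart. The rule picked called genes by their values in the same Xbp1KO libraries, and the share over all genes was not counted. The counts therefore describe the named genes only.

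Sequences before the start sites of genes that moved together are shown because XBP1 and ATF6 are known to bind short motifs with the core CCACG there. They are from RefSeq (GRCm38.p6), 250 bases before an annotated start, 5′ to 3′ on the gene's strand. Capitals mark, on either strand, CCACGT (the core shared by several XBP1 sites), TGACGTGG (the core of the unfolded protein response element, UPRE, whose reverse complement contains CCACGT), the ER stress response element ERSE (CCAAT, then 9 bases of any kind, then CCACG) and ERSE-II (ATTGG, 1 base of any kind, then CCACG). Both of the last end in CCACG, so either can overlap the core. Dnajb9, the DnaJ cochaperone, has the core alone, at chr12:44210069-44210318 on the minus strand. Dnajc3, another cochaperone, has an ERSE and the core at chr14:118937682-118937931, plus strand. Derl3, a channel component of ER-associated degradation, has the same pair at chr10:75893148-75893397, plus strand. Sec24d, a subunit of the COPII coat, has the UPRE core at chr3:123267246-123267495, plus strand. No motif was found before the first start of Fkbp11, at chr15:98728199-98728448, minus strand, though CCACGT follows its other annotated start by 22 bases, or before that of Sec61b, at chr4:47474411-47474660, plus strand.
Dnajb9: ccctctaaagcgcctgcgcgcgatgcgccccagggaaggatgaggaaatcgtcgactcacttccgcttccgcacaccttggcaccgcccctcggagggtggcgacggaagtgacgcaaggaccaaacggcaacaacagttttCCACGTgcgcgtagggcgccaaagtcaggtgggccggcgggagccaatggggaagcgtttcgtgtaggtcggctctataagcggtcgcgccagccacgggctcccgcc
Dnajc3: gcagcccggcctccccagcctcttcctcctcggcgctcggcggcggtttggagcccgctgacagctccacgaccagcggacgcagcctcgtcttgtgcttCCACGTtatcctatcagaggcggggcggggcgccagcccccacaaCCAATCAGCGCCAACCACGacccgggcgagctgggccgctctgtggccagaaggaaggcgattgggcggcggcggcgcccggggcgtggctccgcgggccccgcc
Derl3: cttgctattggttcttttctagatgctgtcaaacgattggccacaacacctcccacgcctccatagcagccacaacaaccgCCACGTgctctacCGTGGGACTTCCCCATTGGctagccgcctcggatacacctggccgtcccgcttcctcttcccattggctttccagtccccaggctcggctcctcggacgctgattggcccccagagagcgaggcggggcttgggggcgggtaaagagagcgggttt
Sec24d: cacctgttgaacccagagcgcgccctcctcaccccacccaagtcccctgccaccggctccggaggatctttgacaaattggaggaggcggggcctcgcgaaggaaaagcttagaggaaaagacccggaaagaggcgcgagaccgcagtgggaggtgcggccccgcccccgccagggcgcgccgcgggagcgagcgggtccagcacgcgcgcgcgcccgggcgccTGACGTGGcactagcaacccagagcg
Fkbp11: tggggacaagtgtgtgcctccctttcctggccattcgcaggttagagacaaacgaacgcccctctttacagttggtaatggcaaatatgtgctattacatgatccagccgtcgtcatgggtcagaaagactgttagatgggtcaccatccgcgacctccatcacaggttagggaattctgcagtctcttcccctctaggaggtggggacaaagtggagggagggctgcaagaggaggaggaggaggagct
Sec61b: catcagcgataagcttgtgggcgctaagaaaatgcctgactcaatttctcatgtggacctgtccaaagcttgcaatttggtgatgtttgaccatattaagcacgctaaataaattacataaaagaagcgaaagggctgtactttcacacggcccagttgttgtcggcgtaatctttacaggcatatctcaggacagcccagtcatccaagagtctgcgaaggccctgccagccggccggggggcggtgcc

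The motifs were counted in the 300-base windows, from 250 before to 50 after a start, of the 10935 tested genes that had one. CCACGT was present in 12.8% of all these genes, in 18.0% of the 612 called lower and in 11.6% of the 438 called higher. The UPRE core was present in 0.997%, 2.45% and 0.913% of the same groups, and an ERSE in 0.165%, 0.817% and 0% of them. ERSE-II was found in 8 genes in all, of which 2 were called lower and none higher. Among 87 genes called lower by at least 4-fold, 6 held the UPRE core. Within 9 lists of the secretory pathway from chaperones to ER-Golgi transport, however, CCACGT was present in 29.3% of 75 genes called lower and in 35.7% of 112 genes not called, and the UPRE core in 3 and 11 of these genes. Of the same 75 and 112 genes, 5 (6.67%) and 6 (5.36%) held an ERSE, and 1 and 2 held an ERSE-II. CCACGT was thus more frequent in these lists as a whole than among all genes, and its share was not higher in the members that fell. A match is a description of letters, not of binding.

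Across those 9 lists, 97 of 231 genes tested (42.0%) fell and 7 (3.03%) rose, beside 5.94% and 4.08% of all genes. The median difference of the 231 genes was -0.53 against 0.065 over all genes, and that of the 97 genes was -1.20. Both Xbp1KO libraries lay below both WT libraries in 166 of the 231 genes (71.9%, against 27.2% of all genes). The median log2 ratio was -0.54 between Xbp1KO replicate 1 and WT replicate 3, the pair low in neutrophil and red cell transcripts, and -0.56 between Xbp1KO replicate 2 and WT replicate 4, the pair high in them. Some genes stand in more than 1 list and are counted in each list below. In bulk RNA, fewer cells of a type and less of an RNA per cell cannot be told apart.

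**Figure D3:**
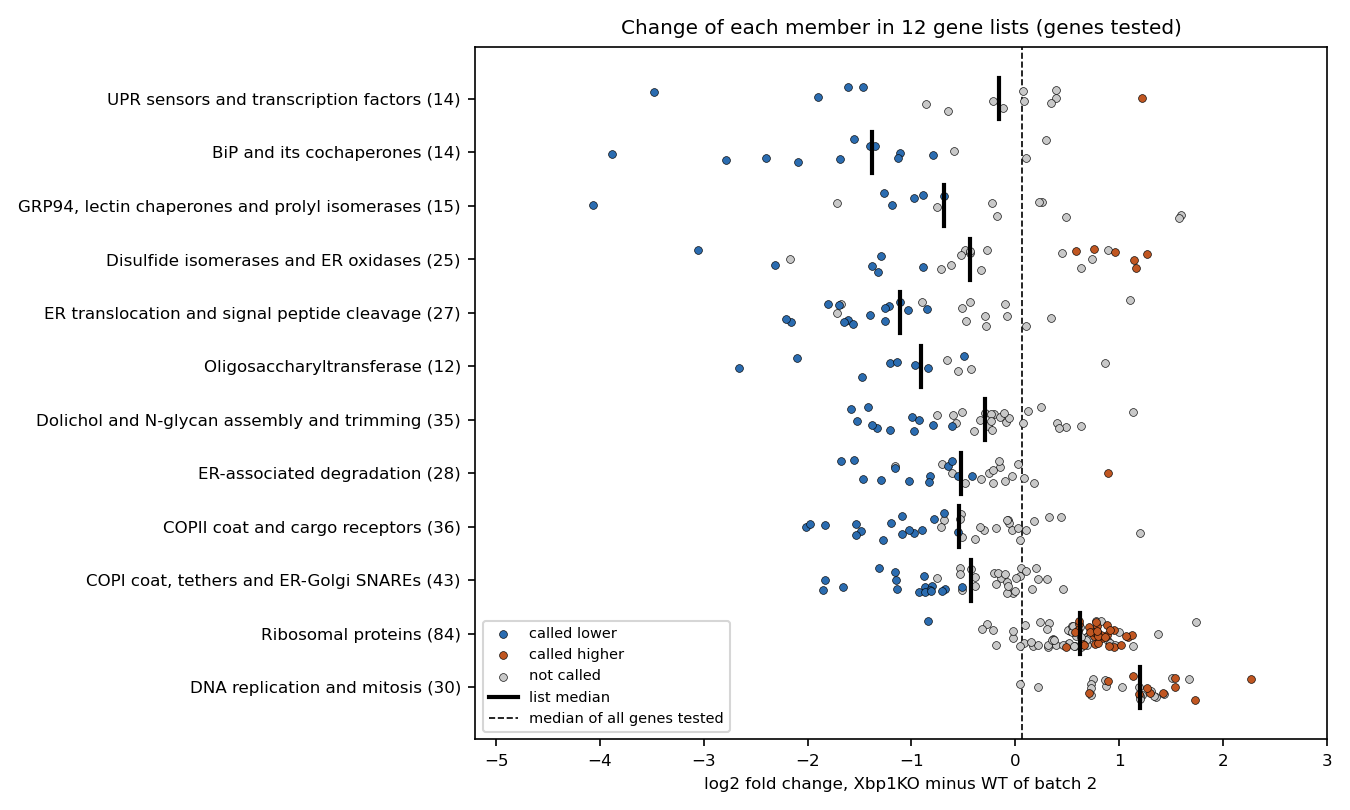
Log2 difference, Xbp1KO minus WT of batch 2 (x), of each tested member of 12 gene lists (y, number tested in brackets); black bars are list medians and the dashed line is the median of all genes. The chaperone, translocation and oligosaccharyltransferase lists lie to the left, with medians of -1.38, -1.11 and -0.91, and the ribosomal protein and DNA replication lists to the right, with medians of 0.62 and 1.20.

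The cochaperones of BiP fell almost as a set. BiP, encoded by Hspa5, is the Hsp70 chaperone of the ER, and its DnaJ partners and nucleotide exchange factors set its work cycle. Of 14 tested genes, 11 were called lower and none higher, with a median of -1.38 and pair medians of -1.31 and -1.44. Dnajc3, the p58IPK cochaperone, fell from 700 and 669 CPM to 106 and 91.0 CPM, by 2.79 ± 0.17 on the log2 scale (adjusted p = 0.00829). Hyou1, a nucleotide exchange factor for BiP, fell from 703 and 683 CPM to 151 and 110 CPM (adjusted p = 0.0128), and Dnajb11, the ERdj3 cochaperone, from 365 and 360 CPM to 92.9 and 77.6 CPM (adjusted p = 0.00951). Dnajc10, a cochaperone that reduces disulfides, and Sec63, which recruits BiP to the translocation channel, fell by 1.69 ± 0.13 and 1.40 ± 0.13. Hspa5 itself, named after its values were seen, was at 2311 and 2375 CPM in WT and 3036 and 1982 CPM in Xbp1KO, so that the groups overlapped (adjusted p = 0.86). Without Xbp1KO replicate 2 the list had 10 lower calls, and without WT replicate 4, or without both, it had 1.

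The GRP94 and calnexin group did not move as 1 set. Of 15 tested genes 6 fell and none rose, with a median of -0.69 and pair medians of -0.46 and -0.70. Besides Fkbp11, those that fell included Cnpy2 and Cnpy3, of which Cnpy3 is a cochaperone of GRP94 for Toll-like receptors, from 109 and 94.2 to 42.6 and 42.0 CPM and from 20.3 and 25.5 to 9.23 and 10.8 CPM. Uggt1, the glucosyltransferase that senses misfolded glycoproteins, fell by 0.98 ± 0.15, and Lman1, a cargo receptor for glycoproteins, by 0.69 ± 0.14 with a narrow call (adjusted p = 0.0489). Hsp90b1, which encodes GRP94 and is named after its values were seen, went the other way in level: it was at 6312 and 6463 CPM in WT and 22221 and 16575 CPM in Xbp1KO, a difference of 1.60 ± 0.36 that missed the threshold (adjusted p = 0.0611). That single gene set the summed share of the list, which was 1.79% and 1.86% of counts outside immunoglobulin genes in WT and 5.03% and 3.95% in Xbp1KO, while the list's median was below 0. Calr and Canx, the lectin chaperones calreticulin and calnexin, also named after their values were seen, were at 1010, 959, 1302 and 1049 CPM and at 451, 431, 421 and 356 CPM, and neither was called. Lower calls numbered 5 without Xbp1KO replicate 2, 1 without WT replicate 4 and 0 without both.

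Enzymes of disulfide formation split in both directions. Of 25 tested genes 6 fell and 6 rose, with a median of -0.44 and pair medians of -0.37 and -0.47. Erp44, which retains oxidases and unassembled immunoglobulin M in the early secretory pathway, fell from 217 and 199 CPM to 25.1 and 24.6 CPM, by 3.06 ± 0.12 (adjusted p = 0.00645). The ER oxidases moved apart: Ero1lb (ERO1-beta) fell from 216 and 205 CPM to 45.3 and 39.6 CPM, while Ero1l (ERO1-alpha), also a target of CHOP, rose from 38.4 and 44.7 CPM to 104 and 78.9 CPM (adjusted p = 0.00829 and 0.0303). P4hb, the classical protein disulfide isomerase, and Prdx4, the peroxiredoxin of the ER, fell by 1.38 ± 0.14 and 1.32 ± 0.14. Txndc12 and Txndc15, thioredoxin-domain proteins, rose by 1.27 ± 0.10 and 0.96 ± 0.10, and Txndc12 overlaps Kti12. Pdia4, named after its values were seen, was at 1465 and 1510 CPM in WT and 2734 and 2221 CPM in Xbp1KO and was not called (adjusted p = 0.115). The list had 6 lower and 5 higher calls without Xbp1KO replicate 2, 1 and 0 without WT replicate 4, and the same without both.

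Entry into the ER fell at most of its steps. Of 27 tested genes of translocation and signal peptide cleavage 14 fell and none rose, with a median of -1.11 and pair medians of -1.09 and -1.11. Among channel subunits, Sec61a1 fell from 697 and 623 CPM to 211 and 197 CPM, by 1.70 ± 0.16 (adjusted p = 0.0128), beside Sec61b. The receptor for the signal recognition particle, encoded by Srpr, fell from 404 and 345 CPM to 126 and 120 CPM, and Srp68, a protein of that particle, from 125 and 124 CPM to 58.4 and 56.9 CPM. Ssr4, a subunit of the translocon-associated complex, fell by 1.80 ± 0.14 and Hspa13, an Hsp70 family member of microsomes, by 2.21 ± 0.12. The signal peptidase was uneven: Spcs2 and Spcs3 fell by 1.25 ± 0.17 and 1.25 ± 0.15, whereas its catalytic subunit Sec11c stood at 587 and 554 CPM in WT and 630 and 594 CPM in Xbp1KO. The signal peptidase genes were named after their values were seen. Lower calls numbered 13 without Xbp1KO replicate 2, 2 without WT replicate 4 and 0 without both. In the ER membrane complex and the tail-anchored insertion pathway, 2 of 15 genes fell (Emc10 and Wrb) and Emc1 rose, from 18.8 and 17.1 CPM to 38.1 and 37.5 CPM. The shares were 13.3% and 6.67%, beside 5.94% and 4.08% of all genes.

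N-glycosylation, the transfer of a sugar tree to nascent proteins, fell most at the transferase. Of 12 tested genes of the oligosaccharyltransferase 8 fell and none rose, with a median of -0.91 and pair medians of -0.93 and -0.87. Rpn1, the ribophorin I subunit, fell from 615 and 535 CPM to 95.3 and 87.1 CPM, by 2.66 ± 0.16 (adjusted p = 0.00829). Magt1, an oxidoreductase subunit, fell from 242 and 230 CPM to 58.2 and 52.0 CPM. Rpn2 and Ddost fell by 1.48 ± 0.17 and 1.21 ± 0.14, and the small subunits Ostc and Tmem258 by 0.84 ± 0.12 and 0.97 ± 0.09. In the assembly and trimming of the sugar tree, 11 of 35 genes fell and none rose, with a median of -0.29. They included Dpagt1, which adds the first sugar to dolichol, from 56.5 and 49.6 to 18.6 and 18.5 CPM, Dhdds, which makes dolichol, and the mannosyltransferases Alg2 and Alg11, which fell by 1.38 ± 0.12, 1.42 ± 0.15 and 1.21 ± 0.11. Uap1 and Gmppb, which make nucleotide sugars, fell by 0.98 ± 0.09 and 1.58 ± 0.08, though Gmppb overlaps Rnf123 in the annotation, and the strand setting of the counting is not given in the sources used here. Both lists lost nearly all calls without WT replicate 4, to 1 and 2, and had 7 and 10 without Xbp1KO replicate 2.

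Disposal of misfolded proteins fell in part. In ER-associated degradation, which returns such proteins to the cytosol, 12 of 28 genes fell and 1 rose, with a median of -0.52 and pair medians of -0.50 and -0.46. Edem2, which trims mannose from misfolded glycoproteins, fell from 808 and 697 CPM to 242 and 229 CPM (adjusted p = 0.0141), and Derl3 from 470 and 433 CPM to 180 and 146 CPM (adjusted p = 0.0171). Sdf2l1, a partner of BiP cochaperones, Vimp, which recruits the p97 ATPase, and Ube2g2, a ubiquitin-conjugating enzyme, fell by 1.55 ± 0.15, 1.29 ± 0.14 and 0.83 ± 0.08. Ubxn8, a p97 adaptor of the ER, rose from 16.2 and 14.4 CPM to 28.9 and 27.9 CPM, although it overlaps Ppp2cb. Sel1l, a scaffold of the ubiquitin ligase complex named after its values were seen, was at 1729 and 1485 CPM in WT and 2104 and 1530 CPM in Xbp1KO and was not called. Lower calls numbered 7 without Xbp1KO replicate 2 and 0 without WT replicate 4.

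Genes of transport between the ER and the Golgi fell in part. Of 36 COPII coat and cargo receptor genes 16 fell and none rose, with a median of -0.54 and pair medians of -0.54 and -0.59. Sec24d, which selects cargo, fell from 221 and 202 CPM to 55.9 and 48.5 CPM, by 2.02 ± 0.14 (adjusted p = 0.0088). Sec23b, its partner in the coat, Preb, which starts coat assembly, and the cargo receptors Ergic3 and Mcfd2 fell by 1.49 ± 0.14, 1.53 ± 0.11, 1.83 ± 0.14 and 1.53 ± 0.12. Kdelr3, a receptor that retrieves ER proteins, fell from 14.9 and 14.3 CPM to 3.38 and 4.04 CPM and overlaps Ddx17. In the list of COPI coat, tethers and SNAREs, which serves retrieval and fusion, 17 of 43 genes fell and none rose, with a median of -0.43. Of the COPI coat itself, Copz2 fell from 14.7 and 17.6 CPM to 7.12 and 7.4 CPM. Cope and Arcn1 fell by 0.93 ± 0.14 and 0.87 ± 0.14, while Copa, Copb1, Copb2, Copg1, Copg2 and Copz1 were not called. The retrieval receptors Kdelr1 and Kdelr2 were not called either. All of these coat and receptor genes were named after their values were seen. Arfgap3, which acts on the COPI coat, fell from 135 and 106 CPM to 35.9 and 31.0 CPM, and Bet1, a SNARE of ER-Golgi fusion, from 70.9 and 64.0 CPM to 19.9 and 18.1 CPM. Arf4, a GTPase of the coat, Yif1a and Yipf5, membrane proteins of the early Golgi, and Stx5a, the syntaxin of that fusion step, fell by 1.14 ± 0.15, 1.66 ± 0.11, 0.81 ± 0.09 and 0.82 ± 0.11. Of the 2 lists, 13 and 12 lower calls were made without Xbp1KO replicate 2, and 1 and 2 without WT replicate 4.

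Golgi genes fell around Hid1 and the nucleobindins. Of 34 genes 12 fell (35.3%) and 1 rose (2.94%), beside 5.94% and 4.08% of all genes, with a median of -0.33. Nucb1, a calcium-binding protein of the Golgi, fell from 769 and 685 CPM to 119 and 111 CPM, by 2.66 ± 0.16 (adjusted p = 0.00829). Its relative Nucb2 fell from 27.1 and 28.7 CPM to 1.46 and 4.26 CPM, by 3.30 ± 0.55 (adjusted p = 0.0349), with the Xbp1KO libraries further apart than the WT ones. Mgat2, an enzyme of complex N-glycans, Slc39a7, a zinc exporter of the ER and Golgi, and Slc35b1, which exchanges ATP into the ER, fell by 1.52 ± 0.13, 1.31 ± 0.13 and 1.08 ± 0.10. B4galt1, a galactosyltransferase, rose from 65.2 and 61.0 CPM to 137 and 120 CPM. Membrane lipid genes moved little: 1 of 29 phospholipid genes fell (3.45%), the ethanolamine kinase Etnk1, from 643 and 558 CPM to 268 and 236 CPM, and the list's median was 0.02. Among 30 sterol and fatty acid genes 4 fell (13.3%), led by Insig1 (a brake on sterol synthesis, -1.96 ± 0.24) with Cyp51 and Elovl5. In the same list 3 rose (10%), among them the sterol enzyme Sqle and the fatty acid elongase Elovl6, by 1.56 ± 0.21 and 1.90 ± 0.29.

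The sensors and factors of the unfolded protein response moved in opposite directions. Of 14 genes 4 fell (28.6%) and 1 rose (7.14%), beside 5.94% and 4.08% of all genes, with a median of -0.16. Ern1, which encodes IRE1, rose from 190 and 138 CPM to 430 and 332 CPM, by 1.22 ± 0.23 with a narrow call (adjusted p = 0.0461), which was lost in 6 of 16 alternative fits, among them the fit with DESeq2 size factors and the fit of all 8 libraries. Eif2ak3, which encodes PERK, fell from 154 and 136 CPM to 53.7 and 51.4 CPM (adjusted p = 0.0112), and Atf6b from 127 and 117 CPM to 41.1 and 39.1 CPM (adjusted p = 0.0088). Bhlha15, which encodes MIST1, a regulator of secretory cells and a known XBP1 target, fell from 207 and 192 CPM to 17.8 and 18.1 CPM, by 3.48 ± 0.12 (adjusted p = 0.0041). Creb3l1, a membrane-bound factor of secretory cells, fell from 12.9 and 8.36 CPM to 2.90 and 2.81 CPM. Atf4 and Ddit3 (CHOP), factors of the PERK branch named after their values were seen, differed by -0.21 ± 0.13 and 0.39 ± 0.25, and neither was called. Of 18 targets and effectors of these factors, 2 rose (11.1%) and none fell, with a median of 0.69 and pair medians of 0.41 and 0.71. They were Ero1l and Atf5, a stress factor that overlaps Nup62 and rose from 99.9 and 62.9 CPM to 267 and 218 CPM. Of 7 known substrates of IRE1-dependent decay, 3 passed the filter on low counts, and the 1 called fell (33.3%, beside 5.94% of all genes). With 3 genes tested, this share does not describe the substrates as a set. Hgsnat, a lysosomal enzyme, fell from 28.8 and 26.2 CPM to 2.92 and 6.29 CPM (-2.59 ± 0.40, adjusted p = 0.0293), and Bloc1s1, the textbook substrate named after its values were seen, was at 17.9 and 10.3 CPM in WT and 1.54 and 4.32 CPM in Xbp1KO without a call (adjusted p = 0.0849).

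The share of all counts on immunoglobulin genes was 69.71% and 64.81% in the WT libraries. It was 29.98% and 25.20% in the knockout, which makes the mean difference -39.7 points. An exact 2-sided permutation test gave p = 0.333, the smallest that 2 against 2 libraries allow. The loss was uneven between chains. Heavy chain constant genes fell: Ighm from 13.5% and 14.5% of counts to 1.32% and 1.35%, Igha from 5.24% and 5.01% to 0.546% and 0.963%, and Ighg2b from 6.52% and 6.09% to 1.52% and 0.882%. The kappa constant gene Igkc was at 15.3% and 12.3% in WT and 8.52% and 6.38% in Xbp1KO. J chain (Igj), which joins secreted immunoglobulin M and A, took 5.05% and 4.30% in WT and 6.52% and 6.12% in Xbp1KO, and the lambda genes Iglc1 and Iglc2 also took larger shares, at 0.435%, 0.383%, 0.814% and 0.785% and at 0.135%, 0.121%, 0.188% and 0.248%.

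On the CPM scaled by TMM, whose factors were 0.6093 and 0.7293 in WT and 1.4248 and 1.5793 in Xbp1KO, the estimates of all of these were below 0, so that the direction of J chain and of the lambda genes depends on the scale. Of 13 constant genes and J chain, 6 fell and none rose: Ighm (-4.56 ± 0.67), Igha (-3.96 ± 0.56), Ighg2c (-3.93 ± 0.59), Ighg1 (-3.58 ± 0.34), Ighg2b (-3.55 ± 0.63) and Ighe (-2.76 ± 0.40), with adjusted p from 0.0132 for Ighg1 to 0.0392 for Ighg2b. Igkc (-2.07 ± 0.68, adjusted p = 0.139), Igj (-0.74 ± 0.51, adjusted p = 0.424) and Iglc1 (-0.21 ± 0.30, adjusted p = 0.704) were not called, although 3 of the alternative fits called Igkc lower and 1, the DESeq2 Wald test, called Igj lower. Ighg3 was not called either, since WT replicate 3 held 15180 CPM and WT replicate 4 held 2007 CPM, against 1105 and 428 CPM in Xbp1KO. Ighd, at 3.68, 2.71, 3.07 and 9.21 CPM, showed no separation. Variable segments followed their chains: 73 of 118 heavy segments fell, with a median of -3.81, and 28 of 102 kappa segments, with a median of -1.94, while none rose. In the list of constant genes and J chain, 46.2% were called lower. Among all 257 immunoglobulin genes tested the share was 44%, beside 5.94% of all genes. Both Xbp1KO libraries lay below both WT libraries in 84.8% of these 257 genes, against 27.2% of all genes. Reads of closely related segments can be split or dropped in counting, which leaves single segments uncertain. Of the 6, Igha, Ighe, Ighg1 and Ighg2c were also called without Xbp1KO replicate 2, Ighe also without WT replicate 4, and none without both.

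**Figure D4:**
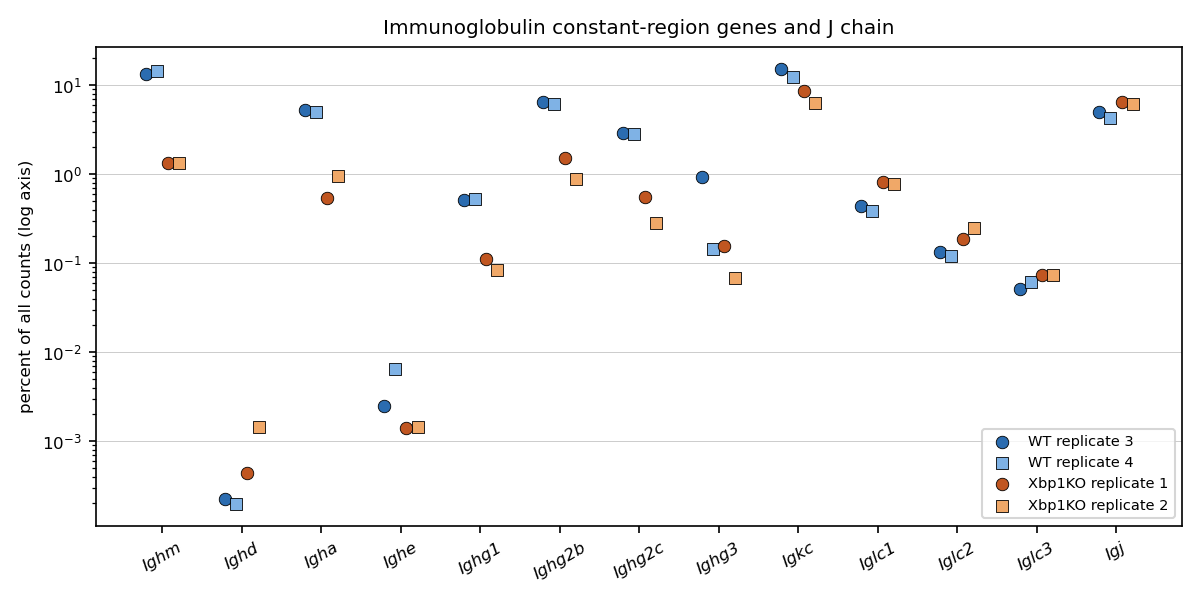
Percent of all counts (y, log axis) on each constant-region gene and J chain (x) in the 4 libraries. Ighm lies at 13.5% and 14.5% in WT and 1.32% and 1.35% in Xbp1KO, whereas J chain and the lambda genes Iglc1, Iglc2 and Iglc3 take a larger share there.

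Among factors that process immunoglobulin mRNA toward the secreted form, no member was called lower. Of 14 genes 2 rose (14.3%, beside 4.08% of all genes) and none fell, with a median of 0.18. Cstf2, the cleavage factor CstF64, rose from 42.0 and 36.8 CPM to 77.0 and 69.2 CPM, and Eaf2, a partner of the elongation factor ELL, from 121 and 121 CPM to 235 and 201 CPM, although Cstf2 overlaps Nox1 and Eaf2 overlaps Iqcb1. Ell2, named after its values were seen, was at 524 and 537 CPM in WT and 556 and 410 CPM in Xbp1KO. The deposited counts are per gene, so the secreted and membrane forms of a heavy chain mRNA were not separated.

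Of 25 tested genes of plasma cell identity 3 fell (12%) and 1 rose (4%), beside 5.94% and 4.08% of all genes, with a median of 0.16. Mzb1, an ER cochaperone of GRP94 that assists antibody assembly, fell from 1492 and 1302 CPM to 352 and 362 CPM, by 1.97 ± 0.18 (adjusted p = 0.0128). The surface antigens Ly6c2 and Ly6c1, near-identical copies whose counts may be shared, fell by 1.65 ± 0.23 and 1.51 ± 0.25. Epcam, a cell adhesion molecule, rose from 113 and 79.0 CPM to 322 and 287 CPM, by 1.67 ± 0.22. Among 34 genes of mature B cells 3 rose and 3 fell, 8.82% each, with a median of 0.27 and pair medians of -0.14 and 0.45, which differ in sign. Cr2, Cd40 and Cd79b, receptors of B cells, rose by 2.17 ± 0.33, 1.48 ± 0.26 and 0.91 ± 0.16, and the signalling kinases Blk and Btk and the factor Irf8 fell by 0.94 ± 0.16, 0.67 ± 0.12 and 0.87 ± 0.14. Of 12 genes of antigen presentation on MHC class II, H2-Eb2, H2-DMa and Ifi30 rose by 1.20 ± 0.12, 1.19 ± 0.12 and 1.02 ± 0.19, and H2-DMa overlaps Brd2. These 3 were 25% of the list, beside 4.08% of all genes. Ifi30 was at 38.6 and 42.3 CPM in WT of batch 1 on the scale of all 8 libraries, above the 28.2 and 37.7 CPM of Xbp1KO. The median of that list was -0.14, with pair medians of -0.37 and 0.23, again of unlike sign.

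**Figure D5:**
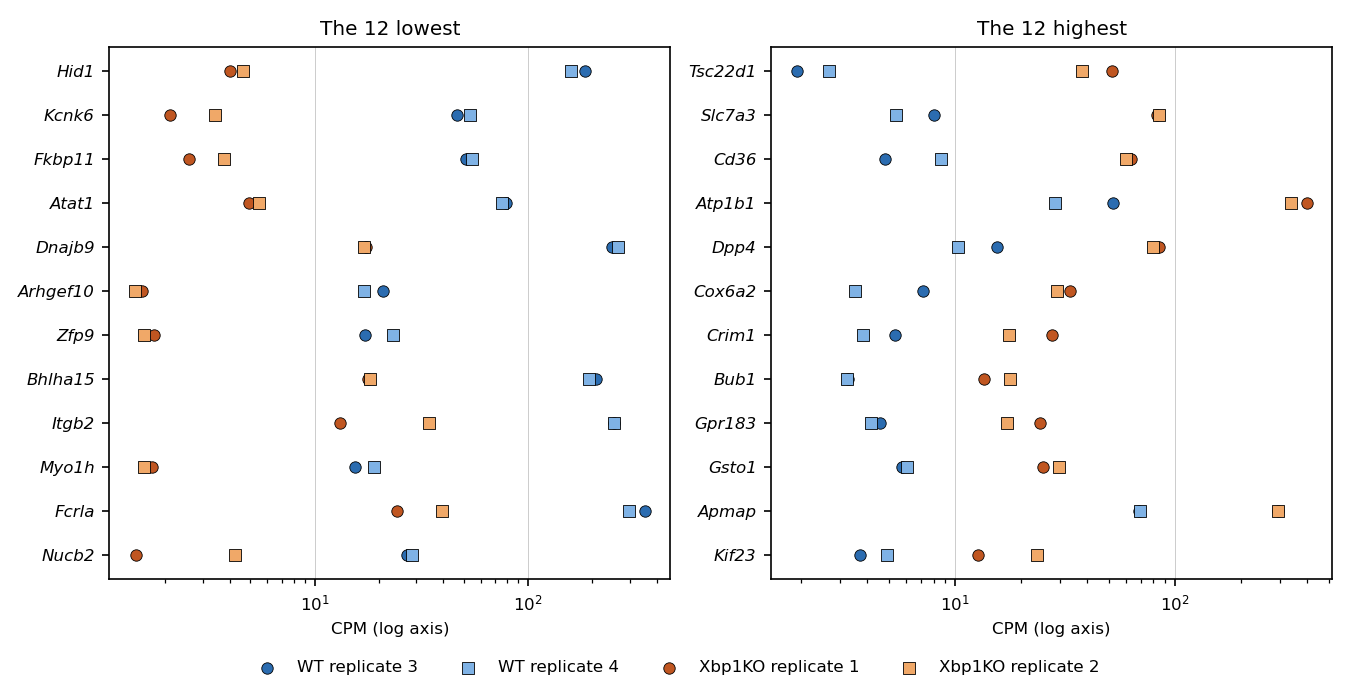
CPM (x, log axis) in each library of the 12 genes with the lowest and the 12 with the highest log2 difference by the rule for named genes. The rule leaves out genes with overlapping groups. The knockout libraries differ most from each other for Itgb2 and Nucb2 among the lowest and for Kif23 among the highest.

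Outside the secretory lists, the lowest genes were mixed in function. Kcnk6, a potassium channel, fell from 46.4 and 53.4 CPM to 2.11 and 3.43 CPM (-4.18 ± 0.28, adjusted p = 0.0088). Atat1, the acetyltransferase of alpha-tubulin, fell from 78.6 and 75.8 CPM to 4.92 and 5.51 CPM (-3.89 ± 0.11, adjusted p = 0.0041). Fcrla, an Fc receptor-like protein that resides in the ER of B lineage cells and binds immunoglobulin, fell from 352 and 297 CPM to 24.3 and 39.6 CPM. Itgb2, the beta-2 integrin chain that neutrophils also carry, was at 252 and 253 CPM in WT and at 13.2 and 34.5 CPM in Xbp1KO, with the higher knockout value in the library with 2251 CPM of neutrophil markers, and the part of those markers in that value was not tested. Arhgef10, a guanine nucleotide exchange factor, Zfp9, a zinc finger protein, and Myo1h, a class I myosin, fell by 3.67 ± 0.19, 3.59 ± 0.22 and 3.38 ± 0.20, and Myo1h overlaps Kctd10. Myo1h was at 1.29 and 1.28 CPM in WT of batch 1 on the scale of all 8 libraries, near the 1.37 and 1.19 CPM of Xbp1KO and below the 11.8 and 14.6 CPM of batch 2 WT. Among interferon-stimulated genes 1 of 25 fell (4%, beside 5.94% of all genes), the exonuclease Isg20, from 94.8 and 77.5 CPM to 10.3 and 17.1 CPM. The median of that list was 0.41, with pair medians of -0.32 and 0.71, which differ in sign.

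The gains were led by a transcription regulator and membrane proteins. Tsc22d1 (chromosome 14, 76414961 to 76507765), a leucine zipper protein of the TSC22 family, rose from 1.91 and 2.69 CPM to 51.8 and 37.8 CPM, 19.6-fold (4.29 ± 0.27, adjusted p = 0.00829). Slc7a3 (chromosome X, 101079146 to 101090452), a transporter of cationic amino acids, rose from 8.04 and 5.41 CPM to 82.8 and 84.7 CPM, 12.4-fold, and overlaps Snx12. In batch 1 WT, on the scale of all 8 libraries, Tsc22d1 was at 6.33 and 6.49 CPM and Slc7a3 at 6.40 and 7.12 CPM, below the 41.1 and 28.3 CPM and the 65.6 and 63.4 CPM of Xbp1KO. Cd36, a fatty acid and scavenger receptor, rose from 4.79 and 8.63 CPM to 63.0 and 60.3 CPM, and Atp1b1, the beta subunit of the sodium pump, from 52.4 and 28.6 CPM to 397 and 338 CPM. Dpp4, the surface peptidase CD26, rose by 2.66 ± 0.23, Gpr183, an oxysterol receptor that guides B cells, by 2.26 ± 0.22, and Gsto1, a glutathione transferase, by 2.22 ± 0.14. Apmap, a membrane protein of adipocytes, rose from 69.0 and 69.6 CPM to 295 and 296 CPM. Cox6a2 and Crim1, a respiratory subunit and a transmembrane regulator of growth factors, rose by 2.54 ± 0.37 and 2.30 ± 0.30. Among these, Gpr183 overlaps Ubac2, Atp1b1 overlaps Nme7, Cox6a2 overlaps Itgad and Crim1 overlaps Fez2.

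Genes of DNA replication and mitosis were higher in the knockout libraries. Of 30 genes 11 rose (36.7%, beside 4.08% of all genes) and none fell, all 30 estimates were above 0 and the median was 1.20. Bub1, a kinase of the mitotic checkpoint, was at 3.28 and 3.23 CPM in WT and 13.6 and 17.9 CPM in Xbp1KO (2.27 ± 0.20, adjusted p = 0.0128). Kif11 and Kif23, mitotic kinesins, were at 11.8, 15.1, 33.3 and 56.0 CPM and at 3.72, 4.91, 12.7 and 23.7 CPM, and Mcm5, a replicative helicase subunit, at 16.1, 21.4, 43.5 and 65.5 CPM. Top2a, Tpx2 and Bub1b rose by 1.30 ± 0.23, 1.54 ± 0.27 and 0.89 ± 0.09. In Kif11, Kif23, Mcm5 and Top2a the library of each genotype with more neutrophil and red cell transcripts was the higher one. The median log2 ratio was 0.88 in the pair low in those transcripts and 1.29 in the pair high in them, so the list was higher in both pairs. The part of other cells in the size of this rise was not tested. The list had 11 higher calls without Xbp1KO replicate 2 and 0 without WT replicate 4.

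Ribosomal protein genes were higher than in WT of batch 2 by a small amount. Of 84 genes 31 rose (36.9%) and 1 fell (1.19%), beside 4.08% and 5.94% of all genes. In this list 77 estimates were above 0, and the median was 0.62 with pair medians of 0.58 and 0.62. Rps26 rose from 39.1 and 36.5 CPM to 81.7 and 79.0 CPM and Rps2 from 75.5 and 76.2 CPM to 146 and 160 CPM (adjusted p = 0.0124 and 0.0164), while the divergent copy Rps27l fell by 0.84 ± 0.10. On the scale of all 8 libraries, however, Rps26 was at 88.5 and 88.6 CPM in WT of batch 1, above the 64.8 and 59.2 CPM of Xbp1KO. It was at 29.6 and 28.2 CPM in WT of batch 2, so for Rps26 the WT batches differed by more than the genotypes. Rpl30 showed the same order, at 67.1 and 70.1, 51.9 and 46.9, and 28.1 and 26.5 CPM. Rps2, Rpl18 and Rpl10a went the other way, at 69.2 and 87.3, 29.5 and 29.2, and 3.06 and 4.56 CPM in WT of batch 1. In WT of batch 2 they were at 57.1 and 58.8, 26.6 and 27.2, and 23.2 and 22.7 CPM. For Rpl10a, too, the WT batches thus differed by more than the genotypes. In Xbp1KO these genes were higher, at 116 and 120, 46.6 and 43, and 41.8 and 37.4 CPM. Ribosomal protein genes have many processed pseudogenes, which can take some of their reads. All 31 were lost without WT replicate 4, and 31 calls were made without Xbp1KO replicate 2. Respiratory chain and proteasome genes moved little, with 4 of 75 higher and 1 lower in the former (median 0.14) and 3 of 38 higher and 2 lower in the latter (median 0.11). The shares higher were 5.33% and 7.89%, and the shares lower 1.33% and 5.26%. The 2 proteasome genes that fell, Psmb9 and Psmb8, encode subunits of the immunoproteasome and fell by 0.96 ± 0.10 and 0.60 ± 0.12.

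In the BCL2 family, which sets the threshold of apoptosis, 4 of 14 genes rose (28.6%, beside 4.08% of all genes) and 1 fell: the effectors Bax and Bak1 rose by 0.91 ± 0.11 and 0.88 ± 0.09, the death agonist Bid by 0.93 ± 0.11 and the protective Bcl2l1 (BCL-XL) by 1.31 ± 0.13, while the protective Bcl2l2 fell by 0.74 ± 0.09. Of 16 genes of serine, asparagine and proline synthesis 4 rose (25%) and 2 fell (12.5%): the serine enzymes Psat1 and Psph rose, from 34.5 and 32.0 to 101 and 84.8 CPM and from 21.6 and 14.8 to 49.4 and 44.6 CPM, whereas the proline enzyme Pycr1 fell by 0.95 ± 0.15. Psph overlaps Cct6a. Of 16 amino acid transporters Slc7a3 alone rose and the glutamine transporter Slc1a5 alone fell (6.25% each), from 110 and 106 CPM to 44.7 and 53.0 CPM. In the mTORC1 list 3 of 22 fell (13.6%, beside 5.94% of all genes) and none rose, namely Mtor, Rptor and Rragd, by 0.47 ± 0.09, 0.52 ± 0.08 and 1.79 ± 0.34. Mtor was at 38.3 and 36.7 CPM in WT of batch 1 on the scale of all 8 libraries, overlapping the Xbp1KO libraries. Autophagy genes had 5 of 26 lower (19.2%) and none higher, among them the initiation factor Atg13, by 1.44 ± 0.13. In glycolysis 4 of 20 rose (20%), with Pkm, a pyruvate kinase, from 124 and 115 CPM to 266 and 258 CPM. The glucose transporter Slc2a6 alone fell (5%), by 2.01 ± 0.28. Of 20 aminoacyl-tRNA synthetases Farsb alone rose (5%), by 0.49 ± 0.09, and it overlaps Sgpp2.

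Markers of other cells were kept apart. None of the 17 erythroid and 16 monocyte genes was called. These markers differed widely between libraries of a group, so a lack of calls does not show equal levels. Estimates were above 0 for 17 erythroid, 15 monocyte and 23 neutrophil genes, with list medians of 1.57, 1.65 and 1.23. The median log2 ratios were 1.66, 1.70 and 1.19 in the pair high in these transcripts, and -0.60, -0.24 and -0.19 in the other pair. Of 24 neutrophil genes Itgam alone was called (4.17%, beside 4.08% of all genes called higher), at 10.1 and 19.1 CPM in WT and 52.6 and 54.4 CPM in Xbp1KO. Itgam was at a like level in Xbp1KO replicate 1, where S100a8 and S100a9, defining genes of neutrophils named with Siglech, Cd3e and Epx outside the rule, were at 0.425 and 0.222 CPM and 6 of the 24 genes were at 0. In Xbp1KO replicate 2 those defining genes were at 257 and 479 CPM. Ccr9, Cox6a2 and Runx2 of the dendritic cell list rose (25% of 12 tested, beside 4.08% of all genes). In that list 10 estimates were above 0, with a median of 0.74 and pair medians of 0.12 and 0.70. The list summed to 375, 394, 460 and 433 CPM, and the defining gene Siglech was at 0.339, 0.467, 0.0607 and 4.09 CPM. Cd2 and Cd8b1 of the T and NK list rose (11.8% of 17 tested), while Cd3e was at 0.135, 0.149, 0 and 0.158 CPM. Kit of the progenitor list (8.33% of 12 tested) rose from 6.52 and 6.89 CPM to 21.7 and 17.3 CPM. Alpl of the stroma list (11.1% of 9 tested) rose from 29.2 and 29.5 CPM to 73.9 and 77.4 CPM. In the progenitor list 11 estimates were above 0, with a median of 1.28 and pair medians of -0.15 and 1.19, which differ in sign. Prg2, known from eosinophils, fell from 627 and 866 CPM to 347 and 313 CPM (adjusted p = 0.0436), whereas the eosinophil gene Epx was at 0.271, 5.86, 0 and 2.09 CPM. Prg2 was the only call among the 10 tested genes of its list (10%, beside 5.94% of all genes called lower). When markers of neutrophils, monocytes, erythroid cells and megakaryocytes were removed before scaling, 1015 genes were called lower and 717 higher.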

How the data were processed

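RNA came from sorted bone marrow plasma cells, extracted with an RNeasy Micro kit and made into TruSeq libraries, per the labels' protocols. Raw read counts per Entrez gene were deposited for 8 libraries, per the file headers, and log2 FPKM per library for 13945 genes. Subread, featureCounts and limma, and the builds GRCm38 and mm10, are named without versions or steps, per the submitters' processing notes. Strand setting, annotation and the scaling behind the FPKM are not given in the sources used here.

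Symbols came from the deposited files for 13860 genes and RefSeq (GRCm38.p6) for 11720 of 27179, and genes without a symbol held 0.057% to 0.240% of counts. In R 4.3.3 with edgeR 4.0.16, the 4 libraries were filtered with filterByExpr (minimum count 10), leaving 14882 genes, scaled by TMM (factors 0.9726 to 1.0631 when immunoglobulin genes were removed first) and tested by quasi-likelihood with 2 residual and 2.64 prior degrees of freedom. CPM use these scaled library sizes. The spread of 2 libraries a group sets every p-value. Data for this comparison were also simulated (14291 genes), with 50 genes changed at each size. The fit called 88% of genes with a log2 change of -3, 66% at -2, 10% at -1 and 16% at 1, with 15 unchanged genes called. Changes of 2-fold were thus often missed there. Far fewer genes changed in the simulation than the 1491 called here, so these shares need not hold for the data. Alternatives used DESeq2 1.42.0, limma 3.58.1, other scalings, filters and sets of libraries.

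The members and the 42 gene lists (33 of pathways, 9 of other cells) were chosen with earlier results of these data known, and no list was tested as a set. The 184 genes named by rule were Xbp1, Prdm1, Sdc1, Dnajb9, Hid1, Fkbp11 and Sec61b, the 12 highest and 12 lowest differences among calls whose groups did not overlap and whose mean log2 CPM was 3 or more (immunoglobulin genes, pseudogenes, predicted genes and the neutrophil, monocyte, erythroid and megakaryocyte lists left out), up to 6 called members a list by p, or 2 where none was called, and the constant immunoglobulin genes. Not all are printed, and a few are not reported here. Named genes outside the rule were chosen after their values were seen. The leave-out counts of lists were added after seeing the data. Depth bounds counting error only.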

Additional observations from a re-analysis of the deposited data

How the results depend on the processing

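All genes called on the 4 libraries and tested in an alternative kept their sign in each of the 16 alternatives. As their groups did not overlap on the 4 libraries, this was close to fixed in advance where libraries were left out. Against 1491 calls (607 higher, 884 lower), 1406 were made with immunoglobulin genes removed before scaling, 1464 with DESeq2 size factors and 1717 with limma-voom. Counts that moved by over 1.5 times were 2645 (1411 higher) with no filter on low counts, 3454 (1506 higher, 1948 lower, 1732 adjusted p missing) with the DESeq2 Wald test, 397 higher with all 8 libraries in the fit, 928 higher with a replicate block, and 944 higher with limma on the deposited log2 FPKM. Leaving out 1 library gave 0 to 1299 calls, 0 to 490 higher and 0 to 809 lower, the lowest without WT replicate 3. A group then holds 1 library, assumed to vary like the other group. When a fit of all 8 libraries omitted WT replicate 4 together with Xbp1KO replicate 2, 59 were called, 5 higher and 54 lower. The cause of these moves was not tested, other than that fewer libraries leave fewer degrees of freedom. The share of calls that were higher was 40.7%, and 53.3% with no filter.

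The immunoglobulin difference of -39.7 points was -41.3 without J chain and -42.1 to -37.2 without single libraries. Ighd (0.94) turned to -0.04 without Xbp1KO replicate 2 and -0.20 without both libraries, and Iglc1 (-0.21) to 0.03 without WT replicate 3, in a range from -0.41 without single libraries. The cause was not tested.

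The labels give the compared groups no shared replicate numbers. Names of the deposited files number the libraries 1 and 2 in each group, and a replicate block by those numbers gave 2047 calls, 928 higher and 1119 lower, among them Xbp1 (adjusted p = 0.0353), Igkc (0.0109) and Sdc1 (0.042), which were not called without it. Deviations within the numbers had a correlation of 0.538, and 0.494 without the marker lists, over genes.

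At these depths counting error is small for most named genes, and 2 libraries a group set the limit: 4126 genes had an unadjusted p below 0.05.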
